A study of Mus musculus with 2 samples.

Results

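The genes described here encode the subunits of CPSF (cleavage and polyadenylation specificity factor) and CstF (cleavage stimulation factor), the protein complexes that read the poly(A) signal and its surroundings on a nascent transcript. They are 10 of the 23571 genes in the deposited tables and were taken by symbol, as Cpsf1, Cpsf2, Cpsf3, Cpsf4, Fip1l1 and Wdr33 for CPSF and Cstf1, Cstf2, Cstf2t and Cstf3 for CstF. The tables hold 18 RefSeq transcripts of these genes. Each gene is represented by its most-read transcript, judged on the sum of both libraries, and all 10 passed the minimum of 50 reads.

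RNA was sequenced from mTEChi, which are thymic medullary epithelial cells expressing MHC class II strongly. Both libraries came from a lentigenic mouse that carried inducible small hairpin RNAs against Clp1, a subunit of cleavage factor II, together with a GFP reporter, and that was fed doxycycline (2 g per kg of chow) over 2 weeks, starting when it was 3 weeks old. Cells were sorted as CD45-, MHC class II high and Ly51 low or intermediate. The GFP+ cells formed the Clp1 knockdown library and the GFP- cells formed the Ctr library, so doxycycline was common to both, and whether the GFP- cells also carried the construct was not tested. With 1 library per group there is no replicate check, no test was run and no p-value is given. All intervals below are exact 95% intervals and cover counting error only, since reads were amplified and carry no molecular identifiers.

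In mammals the CPSF subunits WDR33 and CPSF4 bind the AAUAAA hexamer, CPSF1 is the scaffold that holds them, FIP1L1 binds U-rich RNA and recruits poly(A) polymerase, and CPSF3 is the endonuclease that cuts, paired with its catalytically inactive relative CPSF2. CstF binds GU-rich RNA downstream of the cut through CSTF2 or its paralogue CSTF2T, with CSTF3 as the dimeric scaffold that bridges to CPSF and CSTF1 as the third subunit. A gene with more than 1 poly(A) site (pA) can end its transcripts early or late, in the 3'UTR or in an intron, and the amounts of these complexes are known to bear on which site is used.

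The deposited counts summed to 37524730 reads in the Clp1 knockdown library and 28464803 in the Ctr library. Clp1 itself (NM_133840) had 812 reads in Clp1 knockdown cells and 1573 in Ctr cells, and after scaling its level was 39.7% of Ctr, a log2 ratio of -1.33 (interval -1.46 to -1.21). The libraries also differed in marker genes of other cells. Summed scaled counts were 692.9 in Clp1 knockdown cells against 15161 in Ctr cells for 6 endothelial markers (6 of 6 at least 2-fold lower), 2070 against 61885 for 3 red cell genes (3 of 3 lower), 4257 against 15263 for 10 thymocyte genes (7 of 10 lower), 3507 against 10340 for 5 fibroblast and mural genes (4 of 5 lower), 592.9 against 1602 for 4 B cell genes (3 of 4 lower), 2335 against 4025 for 6 genes of dendritic cells and macrophages (3 lower, 1 higher) and 19766 against 31643 for 6 cTEC genes (5 of 6 lower). For 9 mTEChi markers the sums were 244452 in Clp1 knockdown cells and 221416 in Ctr cells (4 higher, 1 lower), so both libraries carried the markers of the labelled cell type. H2-Aa made up most of both sums and had a log2 ratio of -0.21, with Aire at -0.23 and Cd86, called lower, at -1.01. Called higher were Epcam (1.34), Cd40 (1.26), Krt5 (1.12) and Krt14 (1.10), while Fezf2 (0.80) and Cd80 (0.36) were positive without a call. By the same rule, given below, 18.6% of all genes with 50 reads were called lower and 19.1% higher. No marker of these lists was at 0 in either library. The part of these differences in the values below was not tested, and fewer cells of a type cannot be told apart from less RNA per cell.

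The levels of the subunits, in RPKM (reads per kilobase of counted exon, scaled to the table's total), spanned 7.04 to 32.03 in Clp1 knockdown cells and 5.84 to 28.2 in Ctr cells. The medians of the 10 genes were 9.41 RPKM in Clp1 knockdown cells and 10.2 RPKM in Ctr cells, above the medians of 5.35 and 5.63 RPKM over all genes with 50 reads. The order changed between the libraries. In Clp1 knockdown cells Cpsf3 was highest at 32.03 RPKM, followed by Cstf2t at 23.8, Fip1l1 at 17.6 and Cstf2 at 11.5, and the counting intervals of these 4 neighbours did not overlap. Further down, the intervals of Cpsf2 (9.95), Cpsf4 (8.87) and Cstf1 (8.64) overlapped from neighbour to neighbour, as did those of Wdr33 (7.41), Cpsf1 (7.14) and Cstf3 (7.04). In Ctr cells Cstf2t led at 28.2 RPKM. Cstf1 (15.6), Cpsf3 (15.4) and Cpsf4 (14.7) followed with overlapping intervals, then Fip1l1 (10.4), Cstf3 (10.02) and Wdr33 (9.66), again overlapping. Then came Cpsf1 (8.07) with Cstf2 (7.96), and Cpsf2 was lowest of these gene-level transcripts at 5.84. These levels average over the whole counted transcript, so the order depends on the length counted. In Cpsf2 the coding exons before the last stood at 15.8 RPKM in Clp1 knockdown cells and 8.25 RPKM in Ctr cells. The 2540 bp of its 3'UTR beyond the proximal pA stood at 2.71 and 2.23 RPKM in the same order. The coding exons of Cstf2 before the last stood at 10.6 and 9.98 RPKM. The Cstf3 level is that of a short transcript ending in intron 3. In its full-length transcript, coding exons from exon 3 on, without the last, stood at 5.79 RPKM in Clp1 knockdown cells and 3.88 RPKM in Ctr cells. The last exon stood at 6.80 RPKM in Clp1 knockdown cells and 7.63 RPKM in Ctr cells.

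**Figure D1:**
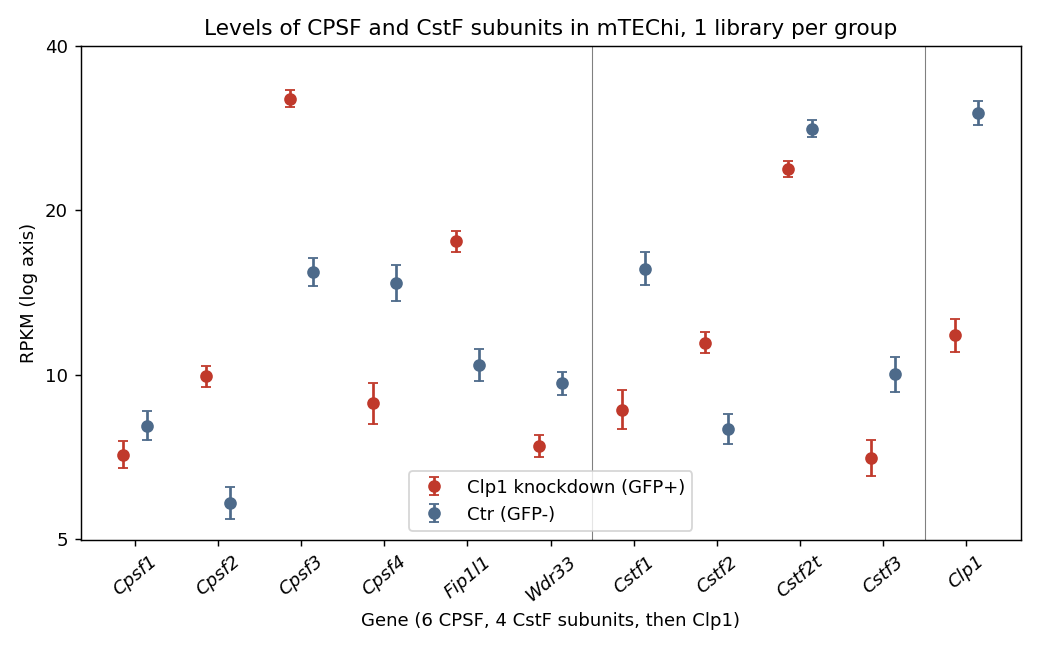
Level of each CPSF and CstF subunit gene and of Clp1 in the Clp1 knockdown (red) and Ctr (blue) libraries, in RPKM on a log axis; bars are 95% counting intervals and each point is 1 library. Cpsf3 was the highest subunit in Clp1 knockdown cells (32.03 RPKM) and Cstf2t in Ctr cells (28.2 RPKM), and Clp1 had 11.8 RPKM in Clp1 knockdown cells and 30.2 RPKM in Ctr cells. The Cstf3 points are those of NM_177253, a short transcript ending in intron 3.

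The subunits did not shift as a block. Of the 10 genes, 4 had a ratio of Clp1 knockdown over Ctr above 1 with an interval that excluded no difference, and 6 had a ratio below 1 with such an interval; among the 16831 genes with 50 reads these shares were 42.6% and 42.1%. A gene was called when the ratio was also at least 2-fold. Of the subunits, 1 was called higher (19.1% of all genes were) and 0 were called lower (18.6% of all genes were), so calls were not more frequent here than in the background. The median log2 ratio was -0.19 over the 10 genes and 0.00 over all genes. It was 0.31 for the 6 CPSF genes and -0.36 for the 4 CstF genes. The CstF median depends on the transcript taken for Cstf3. The most-read transcript, which ends in intron 3, was at -0.49, and the full-length transcript was at 0.36. The median size of the difference, whatever its sign, was 0.63 for the subunits and 0.71 for all genes.

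Among the enzymatic and scaffold subunits of CPSF, the nuclease gene Cpsf3 (NM_018813, chromosome 12, 21292158 to 21320917, plus strand) had 3077 reads in Clp1 knockdown cells and 1124 in Ctr cells. Its scaled level was 2.11 times that in Ctr (interval 1.97 to 2.26), a log2 ratio of 1.07, and it was the subunit called higher. Its partner Cpsf2 (NM_016856, chromosome 12, 103214184 to 103244203, plus strand) had 1984 reads in Clp1 knockdown cells and 883 in Ctr cells, a log2 ratio of 0.79 (interval 0.67 to 0.91). These partner genes thus both had positive ratios, whereas Sympk, the scaffold that joins the CPSF nuclease module, was at -1.001 and is described below. The scaffold gene Cpsf1 (NM_053193, chromosome 15, 76426239 to 76438021, minus strand) had 1210 reads in Clp1 knockdown cells and 1037 in Ctr cells, a log2 ratio of -0.16 (interval -0.28 to -0.03). It was the subunit with the smallest difference. Positions here and below are those of the GENCODE vM1 transcript taken for each gene on mm9. Its ends can differ from those of the RefSeq transcript named beside it. The counted RefSeq transcripts of Fip1l1 and Cstf1 end earlier, at 74993149 and 172206586.

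Among the RNA-contacting subunits of CPSF, Fip1l1 (NM_001159573, chromosome 5, 74931474 to 74994815, plus strand) had 2031 reads in Clp1 knockdown cells and 915 in Ctr cells, a log2 ratio of 0.77 (interval 0.66 to 0.89). The hexamer-binding subunits had negative ratios. Cpsf4 (NM_178576, chromosome 5, 145928116 to 145942909, plus strand) had 534 reads in Clp1 knockdown cells and 673 in Ctr cells, a log2 ratio of -0.71 (interval -0.88 to -0.55). Wdr33 (NM_028866, chromosome 18, 31963711 to 32068641, plus strand) had 1725 reads in Clp1 knockdown cells and 1706 in Ctr cells, a log2 ratio of -0.36 (interval -0.46 to -0.27). For Wdr33 this value combines exons that differed in opposite directions, described below.

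In CstF, Cstf1 (NM_024199, chromosome 2, 172196234 to 172207948, plus strand) had 590 reads in Clp1 knockdown cells and 810 in Ctr cells, a log2 ratio of -0.84 (interval -0.99 to -0.68), the lowest of the 10 genes before any correction for GC content. Cstf2 (NM_133196, chromosome X, 130593736 to 130621358, plus strand), which encodes the GU-binding subunit, had 1871 reads in Clp1 knockdown cells and 986 in Ctr cells, a log2 ratio of 0.55 (interval 0.43 to 0.66). Its paralogue Cstf2t (NM_031249, chromosome 19, 31157331 to 31161080, plus strand), a single-exon gene, had 3350 reads in Clp1 knockdown cells and 3012 in Ctr cells, a log2 ratio of -0.23 (interval -0.30 to -0.15). Cstf2t exceeded Cstf2 per length in both libraries, by 2.08 times in Clp1 knockdown cells and 3.54 times in Ctr cells. Its share of the summed RPKM of the pair was 67.5% in Clp1 knockdown cells and 78.0% in Ctr cells. Most of the Cstf2 difference lay in its distal 3'UTR, described below. The earlier coding exons of Cstf2 stood at 10.6 RPKM in Clp1 knockdown cells and 9.98 RPKM in Ctr cells. The exons of Cstf2 and Cstf2t shared 0 stretches of 50 bases, the read length. In the annotated transcript taken for each of the 10 genes, no 50-base stretch within an exon had a second exact copy in mm9. For Cstf3 and Wdr33 this was the full-length transcript. Sequence found only in their short transcripts was not examined. The scaffold gene Cstf3 spans chromosome 2, 104430680 to 104505586, plus strand, in its annotated full-length transcript. NM_177253, which represents the gene here, ends at 104451563. It had 697 reads in Clp1 knockdown cells and 752 in Ctr cells, a log2 ratio of -0.49 (interval -0.64 to -0.34). This value belongs to a short isoform and is taken up below.

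**Figure D2:**
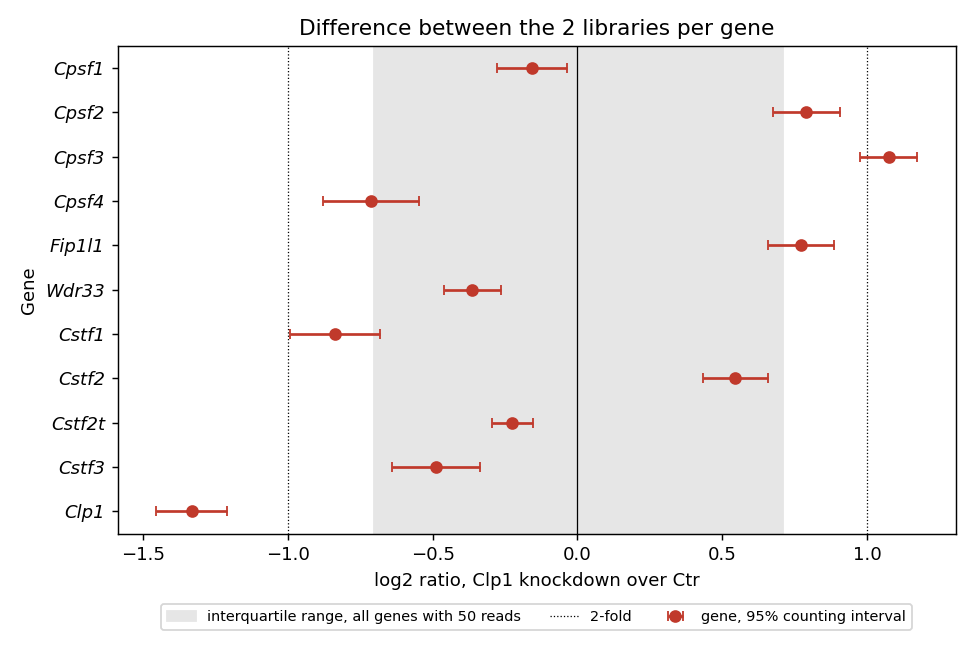
Log2 ratio of scaled reads, Clp1 knockdown over Ctr, for the 10 subunit genes and Clp1 (x axis), with 95% counting intervals; dotted lines mark 2-fold and the grey band is the interquartile range of all genes with 50 reads (-0.70 to 0.71). The subunits lay between -0.84 (Cstf1) and 1.07 (Cpsf3), and Clp1 was at -1.33.

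Base composition moved with these values. The median log2 ratio over all genes was 0.52 in the tenth with the lowest exonic GC content and -0.44 in the tenth with the highest. The 4 subunits with positive ratios had 41.5% GC (Fip1l1), 42.3% (Cstf2), 44.1% (Cpsf2) and 48.8% (Cpsf3), while the 6 with negative ratios ran from 38.5% (Cstf3) to 56.5% (Cpsf1). With the running median over GC content subtracted, Cpsf3 was at 0.997, just under 2-fold, so no subunit was called. Cpsf1 took the opposite sign at 0.23, and Fip1l1 and Cstf2 were at 0.25 and 0.18. Cstf1 at -0.65 and Cpsf4 at -0.40 stayed negative and Cpsf2 stayed positive at 0.46. Other values grew or hardly moved. Cstf3, represented by its transcript ending in intron 3, was at -0.98 and became the lowest of the 10. Its full-length transcript was at 0.36 before this subtraction. Cstf2t was at -0.41 and Wdr33 at -0.31. GC content was taken over all annotated exons of a gene together, not over the counted transcript.

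The most-read transcript of Cstf3 was not the one that encodes the full protein. Cstf3 transcripts can end in intron 3, at a pA known in vertebrates to yield a short RNA that lacks most of the coding sequence. NM_145529 is the full-length transcript, and NM_177253 and NM_001037326 run from exon 3 into intron 3 and end there. The 30 bases before 3 sites are shown because the isoforms differ by where they end. These sites are the proximal pA annotated within the last exon of NM_177253, the end of NM_177253 and the end of NM_145529. The end of NM_001037326, whose counted last exon is 559 bp long, was not placed and is not shown. The bases are from the mm9 plus strand of chromosome 2. Capitals mark the poly(A) signal hexamer, AATAAA or ATTAAA, found in the last 40 bases on the gene's strand.
Cstf3 intron 3 proximal site (chr2:104449555-104449584): gttgcaacaacATTAAAacagtttcaatgg
Cstf3 intron 3 distal end (chr2:104451534-104451563): gaaAATAAAgctttgttaatacgttgttgt
Cstf3 end of the full-length transcript (chr2:104505553-104505582): tttgaaaggAATAAAaggacctcaaaaaca
The most proximal site carried the ATTAAA form and both later ends carried AATAAA. Of the 3' ends of 21805 protein-coding genes, 54.4% had AATAAA in the last 40 bases and 66.6% had AATAAA or ATTAAA. A match of letters describes these windows only.

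Read by segment, Cstf3 differed in opposite directions. The 1979 bp of intron 3 between the proximal and distal intronic ends had 386 reads in Clp1 knockdown cells and 563 in Ctr cells, a log2 ratio of -0.92 (interval -1.11 to -0.73). The coding exons from exon 3 on, without the last exon, had 396 reads in Clp1 knockdown cells and 201 in Ctr cells over 1822 bp, of which exon 3 is common to all isoforms, a log2 ratio of 0.60 (interval 0.35 to 0.85). Per length, the intronic segment was thus read at 0.897 times the level of these exons in Clp1 knockdown cells and at 2.58 times in Ctr cells, a log2 change of -1.52 (interval -1.84 to -1.21). Set against the 5'UTR that all 3 isoforms share, with 74 reads in Clp1 knockdown cells and 32 in Ctr cells, the change was -1.75 (interval -2.43 to -1.10). Set against the last exon of the full-length transcript, with 181 reads in Clp1 knockdown cells and 154 in Ctr cells, it was smaller, at -0.78 (interval -1.15 to -0.40). The first 337 bp, made up of exon 3 and the start of intron 3 before the proximal site, had 176 reads in Clp1 knockdown cells and 111 in Ctr cells, a log2 ratio of 0.29 (interval -0.06 to 0.64). As whole transcripts, NM_145529 had 705 reads in Clp1 knockdown cells and 424 in Ctr cells (log2 ratio 0.36, interval 0.18 to 0.53) and NM_001037326 had 328 and 201 in the same order of libraries (0.33, interval 0.07 to 0.59), both opposite in sign to NM_177253. Reads in intron 3 can come from polyadenylated short transcripts or from unspliced RNA, and these cannot be told apart here.

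Wdr33 also differed by segment. Its long transcript, NM_028866, shares the coding part of exons 2 to 7 (724 bp) with the short transcripts NM_001170967 and NM_001170970, and NM_001170966 is a further short form whose last exon was not placed on the annotation. The shared coding exons had 761 reads in Clp1 knockdown cells and 364 in Ctr cells, a log2 ratio of 0.69 (interval 0.50 to 0.87). The 3039 bp of later coding exons, which of these only the long transcript has, had 582 reads in Clp1 knockdown cells and 893 in Ctr cells, a log2 ratio of -0.996 (interval -1.15 to -0.84). The upstream part of the long transcript's last exon had 141 reads in Clp1 knockdown cells and 314 in Ctr cells, a log2 ratio of -1.53 (interval -1.83 to -1.24). Per length, the later coding exons were read at 0.182 times the level of the shared exons in Clp1 knockdown cells and at 0.584 times in Ctr cells, a log2 change of -1.68 (interval -1.92 to -1.44). The last exon followed, at 0.252 times the shared exons in Clp1 knockdown cells and 1.17 times in Ctr cells.

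The 3' ends of the short Wdr33 transcripts did not move together. The upstream part of the last exon of NM_001170966, which may include coding sequence of the other transcripts, had 722 reads in Clp1 knockdown cells and 368 in Ctr cells (log2 ratio 0.59, interval 0.41 to 0.78), and its distal part had 189 and 42 in the same order (1.79, interval 1.30 to 2.31). The last exon of NM_001170970 had 5 reads in Clp1 knockdown cells and 24 in Ctr cells (-2.64, interval -4.39 to -1.22), too few to place its size narrowly. As whole transcripts, NM_001170966 had 1592 reads in Clp1 knockdown cells and 734 in Ctr cells, a log2 ratio of 0.74 (interval 0.61 to 0.87), whereas NM_028866 was at -0.36.

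**Figure D3:**
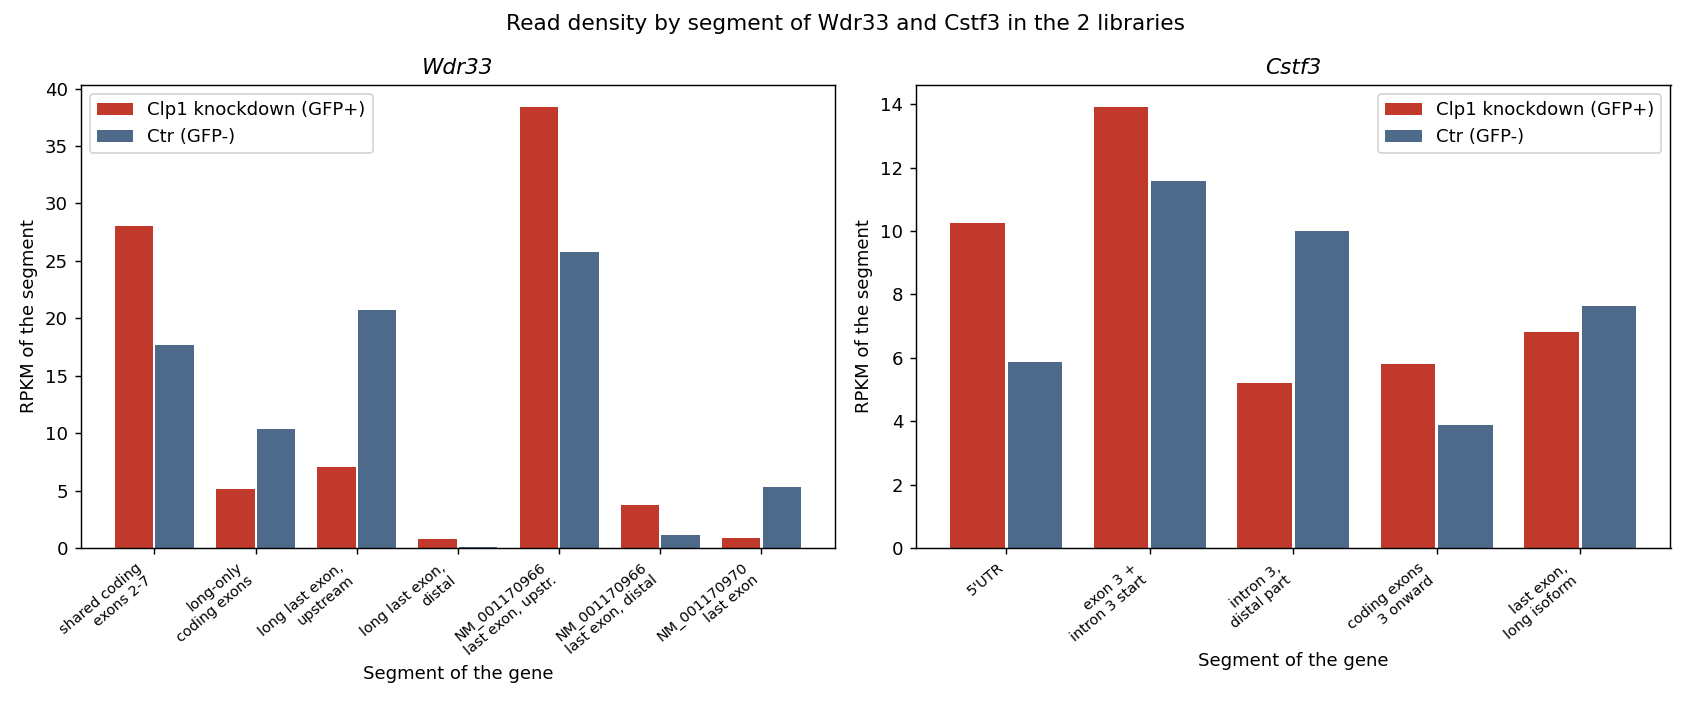
Read density (RPKM, y axis from 0) of segments of Wdr33 (left) and Cstf3 (right) in the Clp1 knockdown (red) and Ctr (blue) libraries; each bar is 1 library. In Wdr33 the shared exons stood at 28.0 RPKM in Clp1 knockdown cells and 17.7 RPKM in Ctr cells while the later coding exons stood at 5.10 and 10.3 RPKM in the same order, and in Cstf3 the distal part of intron 3 stood at 5.20 RPKM in Clp1 knockdown cells and 9.99 RPKM in Ctr cells.

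The other isoform rows added little. The 2 transcripts of Cpsf1 had identical counts, and the 3 of Fip1l1 lay between 0.77 and 0.78 on the log2 scale. Rows of 1 gene share most of their reads and are not replicates of each other.

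Of the 35 annotated parts of the gene-level transcripts, 32 had 20 reads, and 7 were called higher and 1 lower (20.2% and 18.4% of all such parts of all genes were). The parts called higher were the 5'UTR of Cpsf2 and Cpsf3, the earlier coding exons of Cpsf3 and Fip1l1, the upstream last-exon part of the same pair, and the distal 3'UTR of Wdr33. The part called lower was the upstream last-exon part of Wdr33. The 5'UTR of Cpsf3 had 103 reads in Clp1 knockdown cells and 16 in Ctr cells, a log2 ratio of 2.31 (interval 1.54 to 3.17), larger than the 1.04 of its earlier coding exons. In Cpsf2 the values were smaller toward the 3' end, with log2 ratios of 1.12 in the 5'UTR, 0.95 in the earlier coding exons, 0.51 in the upstream last-exon part and 0.30 in the distal 3'UTR. Cpsf4 and Cstf1 had negative ratios both in the earlier coding exons, at -0.94 and -0.96, and in the last exon, at -0.68 and -0.70.

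**Figure D4:**
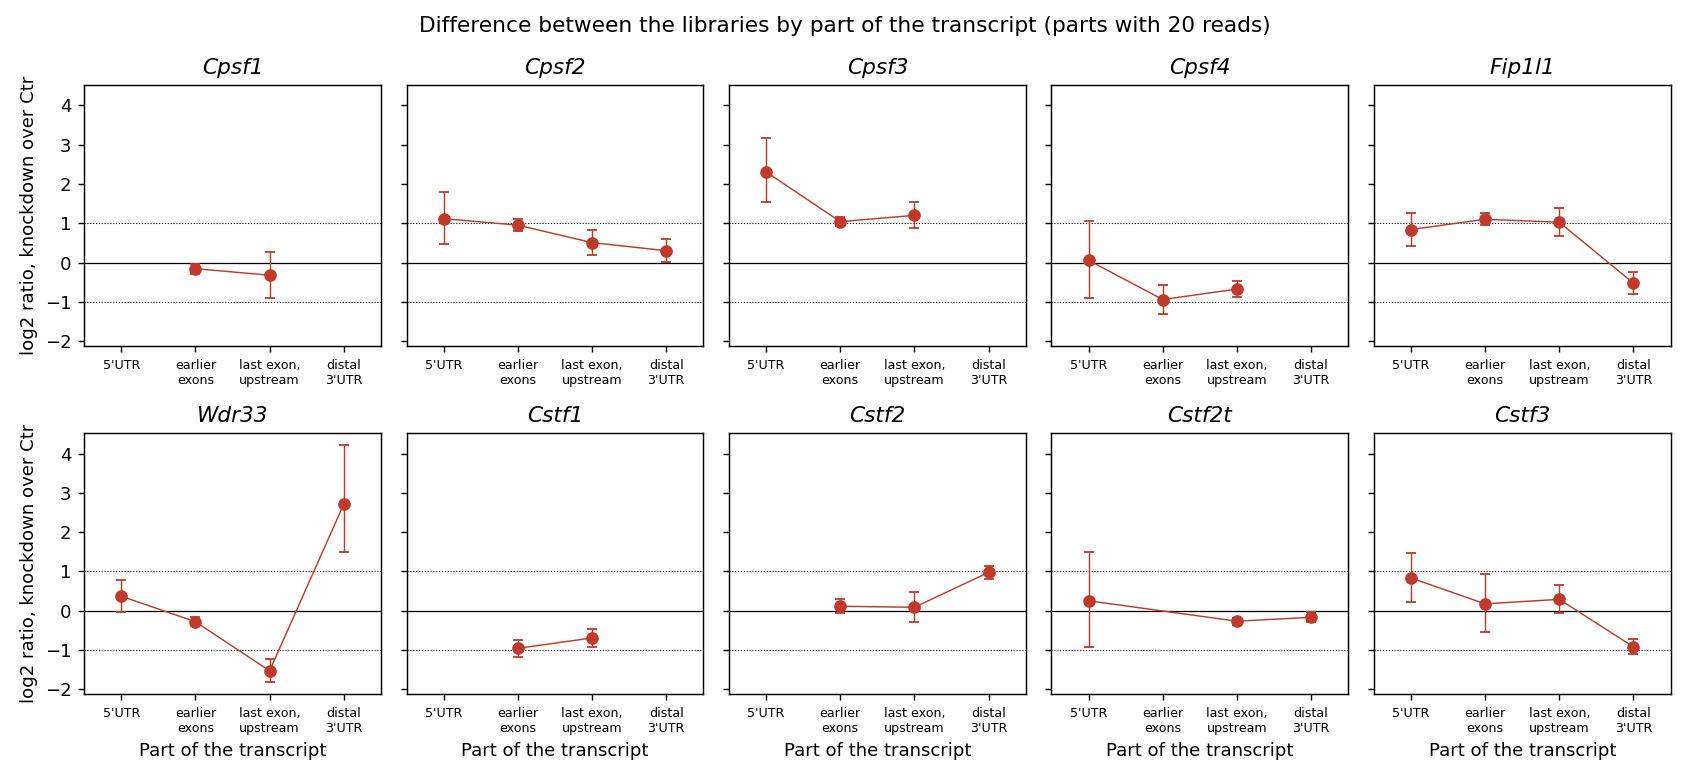
Log2 ratio of Clp1 knockdown over Ctr (y axis) by part of the gene-level transcript (x axis, 5' to 3') for the 10 subunit genes; bars are 95% counting intervals, parts under 20 reads are left out and dotted lines mark 2-fold. Fip1l1 was near 1 up to its proximal pA and at -0.52 after it, Cstf2 was near 0 up to its proximal pA and at 0.97 after it, and Wdr33 was at -1.53 in the upstream last-exon part.

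The d3'UTR ratio, the read density of the distal 3'UTR over that of the upstream region of the last exon, measures how much of a gene's RNA runs past its proximal pA. Of the 10 genes, 6 have an annotated proximal pA in the gene-level transcript and 4 (Cpsf1, Cpsf3, Cpsf4 and Cstf1) do not. Changes of at least 2-fold whose interval excluded no change were 1 higher (Wdr33) and 2 lower (Fip1l1 and Cstf3), against 13.9% higher and 12.6% lower among 5622 genes. With 6 genes the count says little about the group, and the median log2 change was -0.05 for the subunits and 0.00 for all genes.

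Fip1l1 was the gene called lower in an annotated 3'UTR, and the sequences before its pAs are shown for that reason, from the mm9 plus strand of chromosome 5.
Fip1l1 proximal site (chr5:74992083-74992112): aagaaatatacctttaatcttgttctgtta
Fip1l1 RefSeq end (chr5:74993120-74993149): tacaccaAATAAAaattatcactagttttt
The distal end carried AATAAA and neither hexamer was found in the 40 bases before the proximal site. The distal 3'UTR of Fip1l1 (1037 bp) had 207 reads in Clp1 knockdown cells and 229 in Ctr cells, whereas the upstream last-exon part had 257 in Clp1 knockdown cells and 97 in Ctr cells. The d3'UTR ratio was 0.193 in Clp1 knockdown cells and 0.565 in Ctr cells, a log2 change of -1.55 (interval -2.002 to -1.10). The earlier coding exons, with 1281 reads in Clp1 knockdown cells and 459 in Ctr cells (log2 ratio 1.10), moved with the upstream part (1.03) and not with the distal part (-0.52). The last 181 bp of this distal 3'UTR lie across exons of Lnx1 on the opposite strand, which had 848 reads in Clp1 knockdown cells and 663 in Ctr cells (log2 ratio -0.02). Whether counting used the strand is not stated, so reads of Lnx1 within these bases cannot be separated from those of Fip1l1. At the density of its coding exons Lnx1 would place 54.1 reads on these bases in Clp1 knockdown cells and 38.4 in Ctr cells, of the 207 and 229 distal reads given above. The counted last exon of Lnx1 went the other way, with 119 reads in Clp1 knockdown cells and 134 in Ctr cells. The share of Lnx1 in the distal reads of Fip1l1 was not tested.

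In Cstf2 the distal 3'UTR was the only measured part whose interval excluded no difference. Both ends are shown because most of the gene-level difference lay between them, from the mm9 plus strand of chromosome X.
Cstf2 proximal site (chrX:130618965-130618994): aAATAAActttgaacacaagtttaacatac
Cstf2 annotated end (chrX:130621329-130621358): ctgtcgtggattcAATAAAtattttaaaag
Both carried AATAAA. The distal 3'UTR (2364 bp) had 1054 reads in Clp1 knockdown cells and 413 in Ctr cells, a log2 ratio of 0.97 (interval 0.81 to 1.14). The parts before it together had 787 reads in Clp1 knockdown cells and 563 in Ctr cells, a log2 ratio of 0.10 (interval -0.05 to 0.26) whose interval included no difference. The distal 3'UTR took 57.3% of the gene's part-assigned reads in Clp1 knockdown cells and 42.3% in Ctr cells. The d3'UTR ratio was 1.10 in Clp1 knockdown cells and 0.595 in Ctr cells, a log2 change of 0.89 (interval 0.47 to 1.30), short of 2-fold. The last 399 bp lie across an exon of Nox1 on the opposite strand. Nox1 had 95 reads in Clp1 knockdown cells and 0 in Ctr cells, and at the density of its coding exons it would place 22.4 reads on these 399 bp in Clp1 knockdown cells.

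Cstf2t, which replaces Cstf2 in the same complex, had d3'UTR ratios of 1.02 in Clp1 knockdown cells and 0.957 in Ctr cells, a log2 change of 0.10 (interval -0.06 to 0.25). Cpsf2 had 0.129 in Clp1 knockdown cells and 0.149 in Ctr cells, a log2 change of -0.20 (interval -0.63 to 0.22). Both intervals included no change. Wdr33 had 0.115 in Clp1 knockdown cells and 0.00651 in Ctr cells, a log2 change of 4.14 (interval 2.97 to 5.78) that rested on 51 distal reads in Clp1 knockdown cells and 6 in Ctr cells, next to an upstream part that was itself lower in Clp1 knockdown cells. For Cstf3 the ratio of the intronic transcript was 0.373 in Clp1 knockdown cells and 0.861 in Ctr cells, a log2 change of -1.21 (interval -1.61 to -0.81). It sets the distal part of intron 3 against exon 3 with the start of intron 3, not parts of a 3'UTR of the full-length RNA. Because exon 3 is common to all isoforms, reads of the full-length RNA enter the upstream part.

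**Figure D5:**
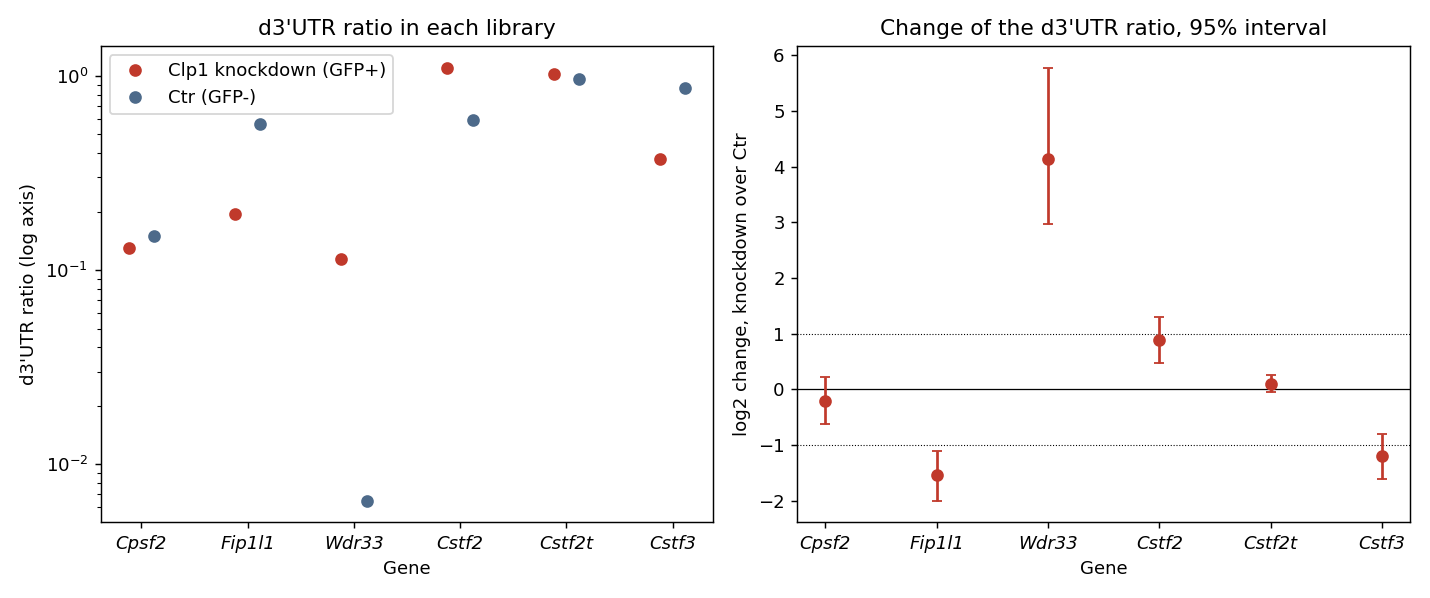
Left, d3'UTR ratio of the 6 subunit genes with an annotated proximal pA in the Clp1 knockdown (red) and Ctr (blue) libraries, on a log axis, each point 1 library; right, its log2 change, Clp1 knockdown over Ctr, with 95% intervals and dotted lines at 2-fold. Fip1l1 (-1.55) and Cstf3 (-1.21) lay below the 2-fold line, Wdr33 (4.14) above it, and Cpsf2, Cstf2 and Cstf2t between the lines.

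The other factors of the cleavage and polyadenylation machinery, a list of 12 genes that includes Clp1, gave 2 called higher and 3 called lower, with 7 called neither way and a median log2 ratio of 0.27; over all genes 19.1% were called higher and 18.6% lower. With the GC trend subtracted, 0 of the 12 were called higher. The higher ones were Cpsf6, a cleavage factor I subunit (6003 reads in Clp1 knockdown cells and 2151 in Ctr cells, log2 ratio 1.10), and Papola, the poly(A) polymerase (4823 and 1808 in the same order, 1.04). The lower ones were Clp1, Cpsf7, a cleavage factor I subunit that stands in for Cpsf6 (533 reads in Clp1 knockdown cells and 1103 in Ctr cells, -1.43), and Sympk, the scaffold that joins the CPSF nuclease module (437 and 673 in the same order, -1.001). Sympk stood at the 2-fold line itself. The remaining 7 ran from -0.14 (Ssu72, a phosphatase) to 0.95 (Papolg, a poly(A) polymerase paralogue).

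In a second list of 8 genes, paralogues of CPSF subunits and factors of histone pre-mRNA cleavage, 6 had 50 reads. Ints11, the Integrator nuclease related to Cpsf3, was called higher with 1455 reads in Clp1 knockdown cells and 520 in Ctr cells (log2 ratio 1.11), as was Lsm11, a U7 snRNP protein, with 365 reads in Clp1 knockdown cells and 93 in Ctr cells (1.59). Casp8ap2, a factor of histone transcript processing, was called lower with 633 reads in Clp1 knockdown cells and 1298 in Ctr cells (-1.41). The other 3 with 50 reads were called neither way. Over all genes 19.1% were called higher and 18.6% lower, so with 6 genes the count says little about the list.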

How the data were processed

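mTEChi were sorted by GFP, RNA was amplified with the Smarter Ultra Low Input kit, made into Nextera libraries and sequenced single-end (50 bp). The submitters' processing notes name Bowtie 1.0.0, bedtools and the mm9 genome. The deposited counts are raw reads contained in exons, summed for every RefSeq transcript, and the authors deposited a second table of counts per part of the transcript, with 3'UTRs split at the most proximal PolyA_DB 2 site. A table of the authors' own comparison (fold changes and p-values from DESeq) was not used. Removal of duplicate reads and use of strand are not stated for these libraries.

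Of 30794 transcripts, 30216 had a symbol in a RefSeq table (GRCm38.p6, names only). Scaling used median-of-ratios size factors (1.14 for Clp1 knockdown, 0.877 for Ctr) computed over all transcripts with reads in both libraries. Intervals of log2 ratios are exact Clopper-Pearson intervals of the Clp1 knockdown share of reads, those of RPKM exact Poisson intervals, and those of d3'UTR ratios exact conditional odds-ratio intervals. Calls needed 50 reads over both libraries (20 for parts), a 2-fold ratio and an interval excluding 0. For the d3'UTR ratio the last exon had to hold 10 reads per library, and 0.5 was added to both of its parts. Sites were placed from the deposited part lengths on GENCODE vM1 exons; the lengths of Cstf2 and Cstf2t differed by 2 bp from the annotation. GC content was had for 85.4% of genes with 50 reads. Code used Python 3.11.15, scipy 1.17.1, pysam 0.24.0 and edgeR 4.0.16 (TMM factors only), and was tested on simulated data. Alternatives were other scalings, gene-level choices, read minimums, a GC trend, thinning, and other settings of the d3'UTR ratio. All subunits, Clp1 and every called gene of the other 2 lists are named by rule. The members, lists and rules were chosen with earlier results of these data known.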

Additional observations from a re-analysis of the deposited data

How the results depend on the processing

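Of 140 values recomputed under 13 alternative settings, 118 stayed near the value reported and 22 moved, and 0 called values reversed. Only gene ratios of at least 2-fold and called d3'UTR changes could count as reversed. Sign changes of smaller values counted as moved, as for the subunit median, Cpsf1, Wdr33 and Cstf3 under some settings. Near means inside the reported value's counting interval, within 1.5 times for a count, and within the subunits' median interval radius for their median, so a value near the 2-fold line can still lose its call. Subtracting the GC trend put Clp1 at -1.65 and the median of the 10 subunits at -0.068, and left 0 subunits called higher (Cpsf3 was at 0.997) and 0 other 3' end factors called higher. Summing reads over all RefSeq rows of a gene, which counts shared reads more than once, put the median at 0.092, with Wdr33 at 0.23 and Cstf3 at -0.04. Taking the longest transcript, a choice made after seeing the data, put it at 0.11, with Cstf3 at 0.36. A 1.5-fold threshold called 3 subunits higher and 2 lower, and 4 other factors higher, where 28.3% of all genes were called higher and 28.0% lower. The scaling by total reads, TMM and thinning changed no subunit's call. The count of other factors called lower was 2 under TMM scaling, summed rows, the GC trend and thinning. With earlier exons in place of the upstream last-exon part, the d3'UTR change was 2.89 for Wdr33 and -0.65 for Cpsf2, and 3 subunits were called as before; Cstf2t has no earlier exons and gave no value.

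No paired analysis was possible because each group holds 1 library. Low counts limit the distal 3'UTR of Wdr33 (6 reads in the Ctr library), the last exon of its NM_001170970 transcript (5 reads in the Clp1 knockdown library) and the 5'UTR of Cpsf3 (16 reads in the Ctr library).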
